A study of Arabidopsis thaliana with 8 samples.

Results

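Arabidopsis inflorescences that overexpressed the plant's own TCP1 gene from the CaMV35S promoter (35S::TCP1) were set against inflorescences that carried the empty vector (control). The comparison rests on the 4 arrays whose titles name these groups, of 8 arrays in the series. The others hold RNA of plants that expressed IaTCP1 from the crucifer Iberis amara or CYC from Antirrhinum majus from the same promoter, and they enter here only where the 3 transgenes were compared directly. All plants were of the Columbia accession, were grown at 20 °C and 55% humidity with 13 h of light per day, and carried the pBAR vector, the controls included. RNA came from secondary inflorescences with closed buds, taken from plants chosen because the flowers of their main inflorescence had a clear phenotype. Each group was 1 line in the T2 generation and its 2 arrays were 2 technical RNA samples of that line. The p-values therefore cover how far RNA samples of a line differ, and no spread between lines was measured. An effect of TCP1 and a peculiarity of either line cannot be told apart. The number of arrays limits the precision of every value.

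TCP proteins are plant transcription factors that control growth through cell division and differentiation. Those of the CYC2 clade, to which TCP1, IaTCP1 and CYC belong, are best known for making the upper and lower petals of a flower differ in size. In Arabidopsis, whose petals are all alike, TCP1 is switched on early in the upper part of the floral meristem, whereas the CaMV35S promoter is active in nearly all organs.

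Transcript levels were measured on ATH1 arrays, on which a probe set stands for a transcript, and are given as log2 intensities. A level can be compared between arrays but not between probe sets. A transcript was called raised or lowered when it differed at least 2-fold between 35S::TCP1 and control with an adjusted p of 0.05 or less (limma, Benjamini-Hochberg over 22746 probe sets). A gene name came from the platform's table for 13513 probe sets. A further 428 could be named only through the study's lists of probe sets changed on these same arrays. Genes of this second kind are marked as study-paired where the Results describe them, but not in captions or in the sections after the Results. They are counted apart, since lists chosen on these arrays are not independent evidence of a direction. No probe set is paired with TCP1 in the tables used, so the level of the overexpressed gene was not analysed here.

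More transcripts were lowered than raised in 35S::TCP1. Of the 22746 probe sets, 150 were raised (0.659%) and 285 were lowered (1.25%), so that 65.5% of the changed probe sets were lower in 35S::TCP1. Among those named by the platform's table, 77 were raised (0.57%) and 145 lowered (1.07%). The 2 groups of arrays did not overlap for any of the 435 changed probe sets, but this was also true of 57.1% of all probe sets. Statements below that the groups lay apart therefore describe the values and add no support to a call. Rises were the larger changes. At least a 4-fold change was seen in 37 of the raised probe sets (24.7%) and in 10 of the lowered (3.51%), and the median log2 change was 1.45 among the raised, -1.20 among the lowered and 0.03 over all. Raised transcripts had a median level of 7.92 in 35S::TCP1 and 6.09 in control, and lowered transcripts one of 6.28 in 35S::TCP1 and 7.69 in control. In control, 29 of the raised probe sets (19.3%) and 0 of the lowered were under a log2 intensity of 5, as were 32.4% of all. The fold minimum and not the test set these numbers, since 3579 probe sets passed the adjusted p alone, 1421 higher and 2158 lower in 35S::TCP1. Just inside the fold minimum, at 2- to 2.2-fold, were 139 called probe sets (35 higher, 104 lower), and just outside it, at 1.8- to 2-fold with a passing adjusted p, were 208 (46 higher, 162 lower).

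**Figure D1:**
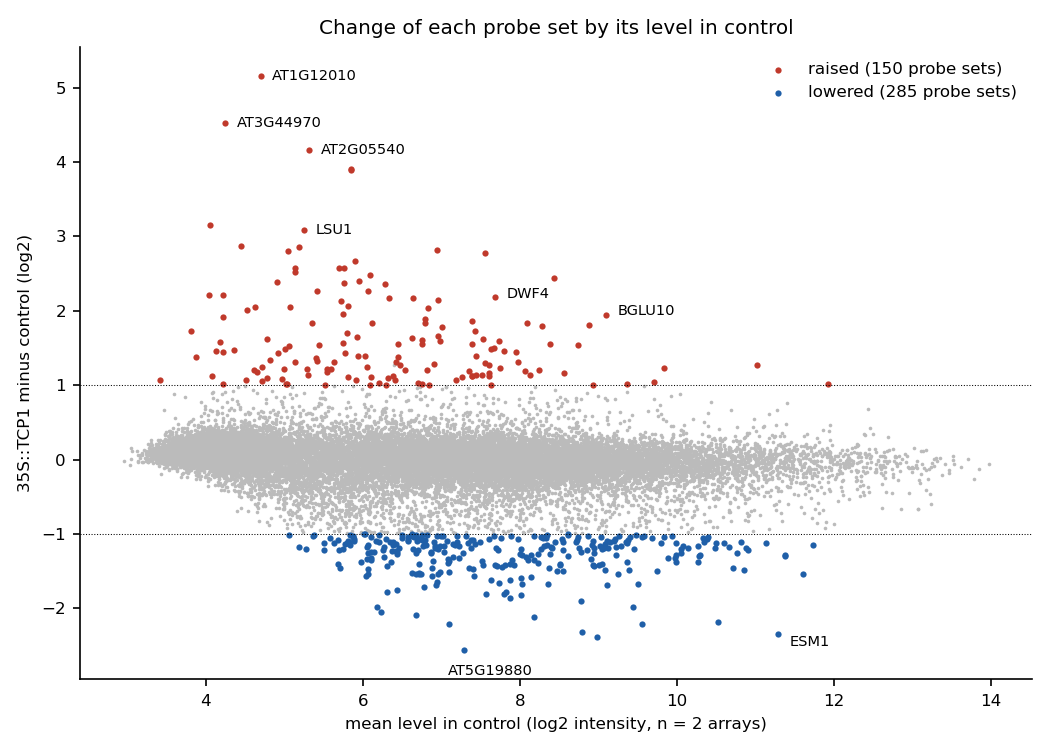
Log2 change of each probe set (35S::TCP1 minus control, y axis) against its mean log2 intensity on the 2 control arrays (x axis), for all 22746 probe sets. Red points are the 150 raised and blue points the 285 lowered probe sets, dotted lines mark the 2-fold minimum, and the rises reach a log2 change of 5.16 while the falls end at -2.56.

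The largest rise was that of AT1G12010, annotated as an oxygenase of the family to which the ethylene-forming ACC oxidases belong. Its level was 9.83 and 9.89 on the 35S::TCP1 arrays, against 4.64 and 4.75 on the control arrays. The difference of 5.16 on the log2 scale was 35.7-fold, with a standard error of 0.09 and an adjusted p of 8.37e-12. The cytochrome P450 gene AT3G44970 had levels of 8.91 and 8.64 in 35S::TCP1, against 4.27 and 4.23 in control, a rise by 4.53 on the log2 scale with a standard error of 0.11. AT2G05540, a glycine-rich protein gene, was at 9.54 and 9.40 in 35S::TCP1 and at 5.32 and 5.31 in control. In each of these genes the arrays of a group lay close together and the groups far apart. Next came 2 probe sets that the tables used pair with no gene, the first at 9.72 and 9.79 in 35S::TCP1 against 5.77 and 5.93 in control and the other at 9.64 and 9.85 against 5.81 and 5.90. AT5G05890, annotated as a UDP-glycosyltransferase, followed with 7.25 and 7.17 in 35S::TCP1 and 4.05 and 4.06 in control.

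Genes of hormone synthesis and response moved both ways. Over 6 hormone lists, 3 of 42 platform-named members were raised and 1 was lowered. Over all platform-named probe sets 0.57% were raised and 1.07% lowered. Of 41 study-paired members 8 were raised and 7 lowered, against 47 raised and 94 lowered of all 428 study-paired probe sets. Ethylene was represented by AT1G12010 and by study-paired ERF15, an ethylene response factor that was low in control, with levels of 6.12 and 6.15 in 35S::TCP1 against 4.18 and 4.27 in control. Both arrays of 35S::TCP1 lay above both control arrays. Of the other platform-named members of the ethylene list, 0 of 2 changed.

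DWF4, the cytochrome P450 that carries out an early, rate-limiting hydroxylation in brassinosteroid synthesis, is study-paired and had levels of 9.82 and 9.90 in 35S::TCP1 and 7.66 and 7.70 in control. This was a rise by 2.18 on the log2 scale, with a standard error of 0.10 and an adjusted p of 3.99e-08. ARL, a relative of the organ size gene ARGOS that responds to brassinosteroid, went the other way, with 6.37 and 6.64 in 35S::TCP1 against 7.65 and 7.74 in control. The groups were well apart in both genes. Of the 4 platform-named genes of the brassinosteroid list, ARL was the 1 that changed, and study-paired BEE3 fell short of the fold minimum with a log2 change of -0.96.

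Among cytokinin genes, 2 were raised. The study-paired genes CKX1, which encodes an enzyme that degrades cytokinins, and ARR9, a type-A response regulator that dampens cytokinin signalling, had log2 changes of 2.07 (standard error 0.11) and 2.15 (standard error 0.09). CKX1 was at 7.93 and 7.83 in 35S::TCP1 and at 5.91 and 5.73 in control. None of 6 platform-named cytokinin genes was called (median 0.08, 4 of them under a mean log2 intensity of 5). Among these, the type-A regulators RR16 and ARR15 had log2 changes of -0.85 and -0.21, and RR16 passed the adjusted p alone. In the gibberellin list, the receptor gene GID1B was at 5.95 and 5.83 in 35S::TCP1 against 4.89 and 4.68 in control (log2 change 1.10, standard error 0.20), and study-paired ATGA2OX1, which inactivates gibberellins, was at 7.50 and 7.43 in 35S::TCP1 against 8.51 and 8.55 in control. GID1B had an adjusted p of 0.00234, and without control replicate 2 its rise dropped just below the 2-fold minimum.

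Auxin genes moved both ways. None of 19 platform-named auxin genes was called (median 0.00), though 6 passed the adjusted p alone, 1 higher and 5 lower. Of the 15 study-paired ones, 3 were raised and 2 lowered. IAA11, a repressor of auxin response, had levels of 9.14 and 9.15 in 35S::TCP1 and 7.32 and 7.53 in control, whereas AXR3, a repressor of the same family, was at 7.17 and 7.50 in 35S::TCP1 and 8.45 and 8.45 in control. Also study-paired, AIR3, a subtilisin-like protease induced by auxin in roots, was raised by 2.40 and the dormancy- and auxin-associated gene AT2G33830 by 2.21. Study-paired UGT74E2, a glycosyltransferase that acts on an auxin precursor, was raised from an already moderate level, with 10.37 and 10.29 in 35S::TCP1 against 7.51 and 7.60 in control.

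Of 7 study-paired jasmonate probe sets 4 were lowered and 0 raised. Those of MYB21 had log2 changes of -0.33 and -0.43 and were not called. MYB24 and MYB108, transcription factors that act downstream of jasmonate in stamen maturation, are study-paired. MYB24 had levels of 7.43 and 7.23 in 35S::TCP1 and 8.60 and 8.64 in control (log2 change -1.29, standard error 0.10), and MYB108 had 5.30 and 5.64 against 6.94 and 7.03 (log2 change -1.52, standard error 0.12). Study-paired JAZ10 and JAZ5, repressors of the jasmonate response that jasmonate itself induces, had log2 changes of -1.10 and -1.15. Of 6 platform-named members, only BSMT1 changed, a methyltransferase that makes the scents methyl salicylate and methyl benzoate, with 9.80 and 10.07 in 35S::TCP1 against 8.37 and 8.39 in control (median of the 6 -0.49).

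**Figure D2:**
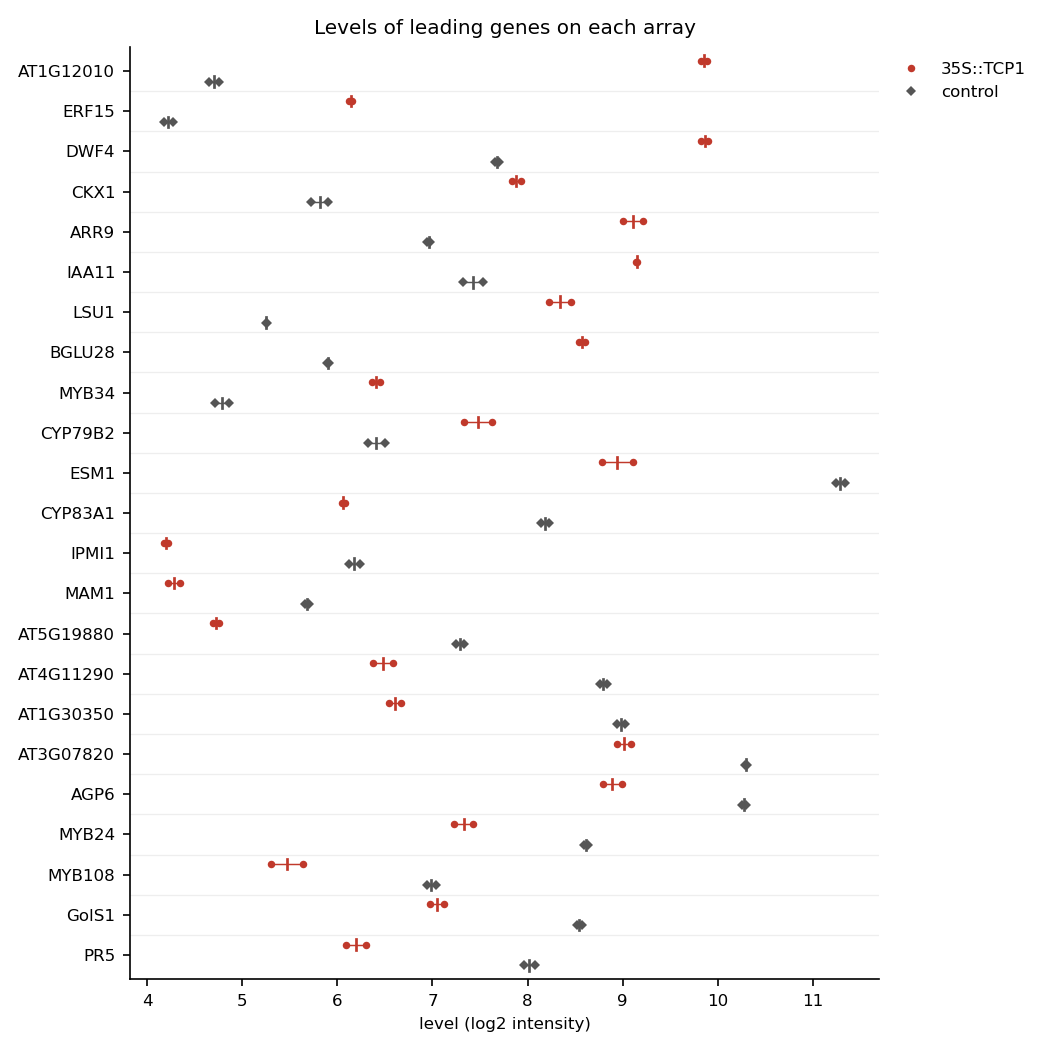
Log2 intensities (x axis) of 23 genes named in the text, with 35S::TCP1 arrays as red circles above and control arrays as grey diamonds below in each row; each point is 1 array, a line joins the 2 arrays of a group and a bar marks their mean. From AT1G12010 to CYP79B2 both 35S::TCP1 arrays lie above both control arrays, and from ESM1 to PR5 below them.

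Of the 9 genes of the sulfur economy that were listed, 4 were raised. LSU1, a protein that accumulates when sulfur is short, is study-paired and had levels of 8.22 and 8.46 in 35S::TCP1 and 5.25 and 5.26 in control (log2 change 3.08, standard error 0.10, adjusted p = 1.98e-09). BGLU28, a beta-glucosidase known as a marker of low sulfur, was at 8.61 and 8.54 in 35S::TCP1 and 5.91 and 5.89 in control. The study-paired genes AT5G26220, of a family that breaks down glutathione, and SULTR4;2, which releases sulfate from the vacuole, had log2 changes of 1.83 and 1.02. The arrays of the groups were apart in all 4, though SULTR4;2 was just above the fold minimum and fell below it without 35S::TCP1 replicate 1 (0.98) or without control replicate 2 (0.94). Together, 1 of 4 platform-named and 3 of 5 study-paired genes of this list were raised. None was called lowered, but study-paired SULTR3;5, a sulfate transporter gene, passed the adjusted p alone with a log2 change of -0.91. APS4, of the first step of sulfate assimilation, had a log2 change of -0.03.

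Glucosinolates, the sulfur-rich defence compounds of crucifers, are made by an aliphatic branch from methionine and an indolic branch from tryptophan. The aliphatic genes that changed were lowered, and all are study-paired. CYP83A1, of the core pathway, was at 6.08 and 6.05 in 35S::TCP1 and 8.23 and 8.14 in control (log2 change -2.12, standard error 0.09). IPMI1 and MAM1, which lengthen the methionine side chain, had log2 changes of -1.98 and -1.40, and FMO GS-OX3, which oxidizes the side chain, one of -1.53. ESM1, likewise study-paired, which steers glucosinolate breakdown towards isothiocyanates, had levels of 8.78 and 9.11 in 35S::TCP1 and 11.34 and 11.24 in control (log2 change -2.34, standard error 0.11). On the indolic side, study-paired MYB34, a regulator, was raised, with 6.45 and 6.36 in 35S::TCP1 against 4.71 and 4.86 in control, and so was study-paired CYP79B2, the first enzyme of that branch, with 7.33 and 7.62 against 6.50 and 6.32. Study-paired CYP83B1 and CYP79B3, also on the glucosinolate list, were not called, with log2 changes of 0.90 and -0.04. Of the 15 study-paired genes of the list 2 were raised and 7 lowered, but none of 5 platform-named members was called (median 0.03). Among these 5, BCAT4 passed the adjusted p alone with a log2 change of -0.66.

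The study placed 21 of the changed probe sets in secondary metabolism, glucosinolate genes included, of which 3 were raised and 18 lowered (85.7%), against 67.9% lowered over all classed probe sets. In the Iberis petal classes, which were not made on these arrays, 1 of 13 secondary metabolism probe sets was lowered and 0 raised. The terpene synthase genes TPS03 and TPS10, whose enzymes make volatile monoterpenes, fell by 1.77 and 1.67 on the log2 scale, while CYP82G1, which forms a volatile homoterpene, was raised by 2.58. Both terpene synthases were lower on each 35S::TCP1 array than on either control array, for TPS10 with 7.73 and 7.94 in 35S::TCP1 against 9.68 and 9.32 in control. In the phenylpropanoid pathway, the neighbouring genes 4CL2 and 4CL5, which activate its precursors, had log2 changes of -1.20 and -1.10, and the laccase IRX12, which acts in lignin formation, one of -1.10. All 6 of these are study-paired, and 0 of 8 platform-named phenylpropanoid genes changed (median -0.09). Whether the probes for 4CL2 and 4CL5 detect both transcripts was not tested.

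The largest fall was that of AT5G19880, a class III peroxidase, a secreted enzyme that can stiffen or loosen cell walls. Its level was 4.70 and 4.76 in 35S::TCP1 against 7.25 and 7.33 in control, so that it fell by 2.56 on the log2 scale, with a standard error of 0.08 and an adjusted p of 2.93e-09. AT4G11290, with 6.38 and 6.59 in 35S::TCP1 against 8.76 and 8.83 in control, and AT3G03670, with 4.86 and 4.91 against 7.06 and 7.13, are peroxidases too. Of the changed probe sets annotated as peroxidases in the study's lists, 6 were lowered and 0 raised. The 35S::TCP1 arrays were the lower ones for each, and AT5G19880 and AT3G03670 ended below a log2 intensity of 5. The list of class III peroxidases, drawn by symbol and gene code, does not hold AT3G03670. Of its 11 platform-named members 2 were lowered, with a median of 0.05, or of -1.58 when probe sets with a mean log2 intensity under 5 (7 of the 11) were left out. The study's lists of changed probe sets hold 4 of the 11, with the 2 falls, and the others had a median of 0.09.

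Enzymes of pectin, the gel of the primary cell wall, made up the largest lowered group of wall genes. AT1G30350, of the pectin lyase-like family, had levels of 6.67 and 6.54 in 35S::TCP1 and 8.94 and 9.02 in control (log2 change -2.38, standard error 0.09, adjusted p = 1.02e-08), and AT2G47550, of the superfamily of pectin methylesterases and their inhibitors, had 4.62 and 4.57 against 6.86 and 6.51. Both lay well apart between the groups. Of 25 platform-named pectin enzymes 11 were lowered and 0 raised, with a median of -0.90. AT2G47550 is not on this list, which was drawn by symbol and gene code. By annotation, 18 of the changed probe sets in the study's lists were pectin genes that were lowered and 1 was raised, by 1.56. Among platform-named probe sets the share lowered was 1.07%. Of the 25, 12 stand in the study's lists of changed probe sets, and among the other 13 were 4 of the 11 changes (median -0.47). The overlap with pollen genes was large, since 9 of the 11 lowered genes are also on the pollen list described further on, and the 15 pectin genes outside that list had 2 lowered members and a median of -0.34.

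Functional classes that were not made on these arrays were used as well. The study had sorted Iberis petal genes into MapMan functional classes, and 705 platform-named probe sets have an Arabidopsis gene among them, of which 8 were raised (1.13%) and 31 lowered (4.40%). Of the 20 probe sets in the cell wall class, 8 were lowered (40%) and 0 raised, with a median of -0.87, and 16 passed the adjusted p alone as lower. In the stress class 4 of 30 were lowered, in transport 2 of 21, and in hormone metabolism 2 of 13 were raised. None changed among 36 signalling, 20 development, 17 cell, 11 photosynthesis and 10 DNA probe sets. Of the 20 cell wall probe sets, 7 are on the pollen list, which held 6 of the 8 falls, and the median of the other 13 was -0.49. The study's lists of changed probe sets also hold 8 of the 20, with 4 of the falls.

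Wall genes outside pectin mostly changed one by one. An exception was the list of arabinogalactan and fasciclin-like proteins, which holds only study-paired genes. All 6 passed the adjusted p alone as lower (median -0.94), and 3 of them were called. Its members AGP6, FLA3 and AGP40 are also on the pollen list described further on. Among expansins, which loosen walls during growth, EXLB1 was at 4.58 and 4.79 in 35S::TCP1 against 6.40 and 6.47 in control and EXPA24 had a log2 change of -1.05, while the other 17 of 19 platform-named members were not called (median of all 19 0.02). Study-paired EXPA11 was lowered by 1.06 on the log2 scale, with 9.32 and 9.24 in 35S::TCP1 against 10.32 and 10.35 in control, and study-paired EXPA2 was raised, with 5.20 and 5.22 against 3.99 and 4.18. Of xyloglucan endotransglucosylases/hydrolases, which cut and rejoin wall polymers, 0 of 10 platform-named genes changed, and study-paired XTH7 had a log2 change of -1.68. None of 10 cellulose synthesis genes was called (median -0.21). The subtilases SBT5.4 and SBT4.13, of a family of secreted proteases, were lowered to about the same degree, with log2 changes of -1.42 and -1.41, and the other 11 platform-named subtilases were not called.

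**Figure D3:**
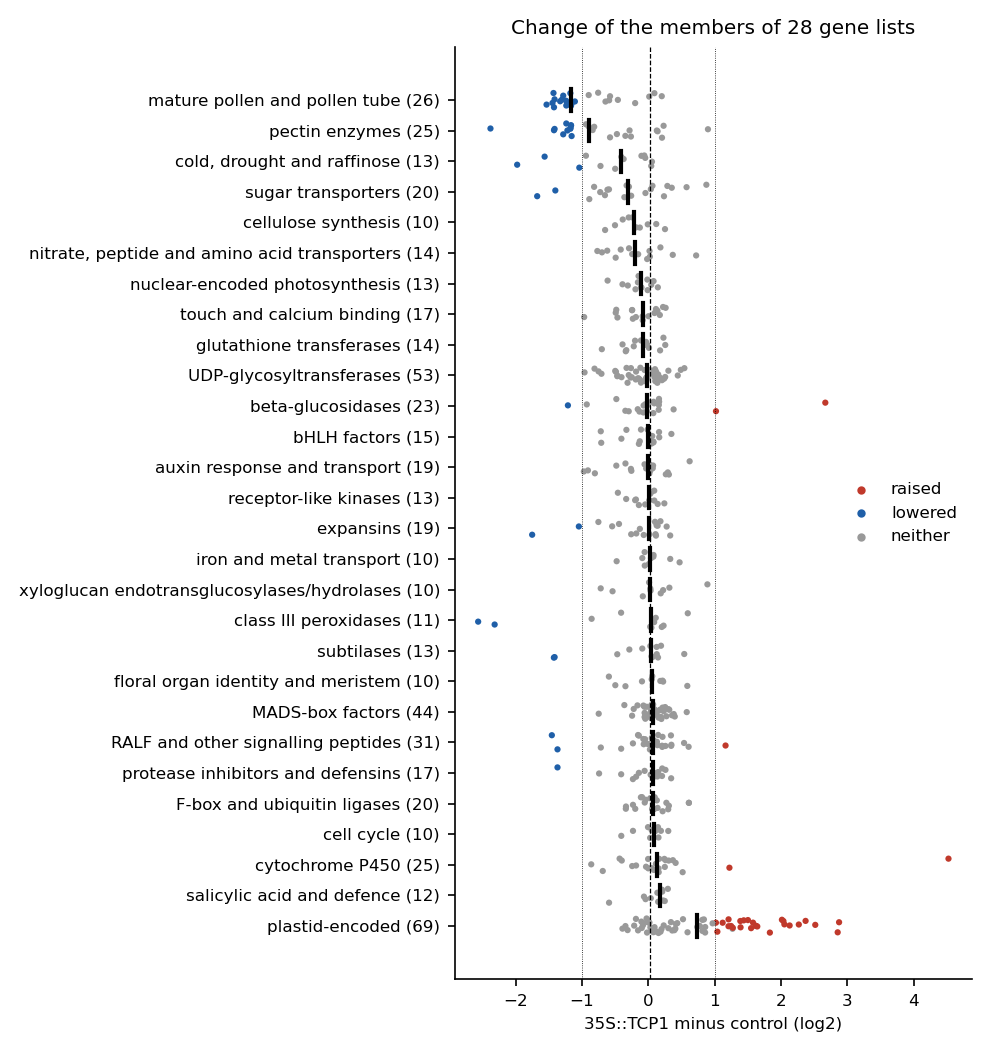
Log2 change (35S::TCP1 minus control, x axis) of every platform-named member of the 28 gene lists with at least 10 such members, the number in brackets; points are probe sets, red raised, blue lowered and grey neither. Black bars are list medians, the dashed line is the median of all probe sets (0.03) and dotted lines are the 2-fold minimum; pollen (-1.16) and pectin (-0.90) lie farthest to the left and plastid-encoded genes (0.74) farthest to the right.

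Genes of mature pollen and the pollen tube were the list most often lowered. Of 26 platform-named members 16 were lowered and 0 raised, with a median of -1.16, and 22 passed the adjusted p alone as lower. Over all platform-named probe sets 1.07% were lowered, and 2158 of all 22746 probe sets passed the adjusted p alone as lower. AT1G29140, related to a pollen allergen of olive, was at 7.60 and 7.84 in 35S::TCP1 and 9.22 and 9.28 in control (log2 change -1.53, standard error 0.10, adjusted p = 7.33e-07). PLIM2a, which bundles actin filaments in pollen, had 6.29 and 6.28 in 35S::TCP1 against 7.69 and 7.73 in control, and AT3G07820, a polygalacturonase, had 9.09 and 8.94 against 10.28 and 10.31. The group's arrays were close together and the groups apart in all of them. The falls were of similar size, from -1.11 to -1.53 among the 16. ANX1 and ANX2, receptor kinases that keep the growing pollen tube intact, had log2 changes of -0.20 and -0.46 and were not called, ANX1 with 3.94 and 4.02 in 35S::TCP1 against 4.21 and 4.15 in control. The list holds genes the study chose on these samples: 13 of the 26 are in its lists, with 12 of the 16 changes, and the other 13 had 4 lowered members and a median of -0.59.

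Of 16 study-paired pollen genes 9 were lowered and 0 raised, against 94 lowered and 47 raised of all 428 study-paired probe sets. AGP6, an arabinogalactan protein needed for pollen development, was at 8.79 and 8.99 in 35S::TCP1 against 10.25 and 10.30 in control. CPK24, a protein kinase that responds to calcium, had a log2 change of -1.12, and STP9, a monosaccharide transporter of pollen, one of -1.46. Summed over all 42 pollen genes, the log2 level was 12.88 and 12.88 in 35S::TCP1 and 14.01 and 14.00 in control. In whole inflorescences, fewer pollen grains and less of these transcripts per grain cannot be told apart, nor can a shift of bud stages within the sample.

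Genes of the tapetum, the anther layer that feeds the pollen and makes its coat, were lower by less. None of 7 platform-named members was called, though 6 passed the adjusted p alone as lower (median -0.48), among them AMS, a master regulator of the tapetum, whose level averaged 8.19 ± 0.06 in 35S::TCP1 and 8.90 ± 0.15 in control (SD, n = 2 arrays each). Study-paired GRP16 and GRP18, oleosin-like proteins of the pollen coat, were lowered, GRP16 with 10.07 and 10.10 in 35S::TCP1 against 11.38 and 11.38 in control. The summed log2 level of 16 tapetum genes was 14.31 and 14.32 in 35S::TCP1 and 14.91 and 14.90 in control. None of 4 meiosis genes changed (median 0.08), all of which had a mean log2 intensity under 5.

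Of the changed probe sets that the study classed as transport, 6 were raised and 16 lowered (72.7%), close to the 67.9% lowered over all classed probe sets. AtVEX1, a sugar transporter named for its expression in the vegetative cell of pollen, averaged 6.35 ± 0.07 in 35S::TCP1 and 8.03 ± 0.03 in control (SD, n = 2 arrays each, log2 change -1.67), and SWEET14, of the same family of sugar pores, had 7.03 and 7.20 against 8.46 and 8.56. Study-paired SWEET12, which exports sucrose from leaf cells for loading into the phloem, went the other way, with 8.64 and 8.70 in 35S::TCP1 against 6.78 and 6.80 in control. Of 20 platform-named sugar transporters 2 were lowered and 0 raised (median -0.31). The study's lists of changed probe sets hold 7 of the 20, with the 2 falls, and the others had a median of -0.29. The sugar transporter list does not hold the neighbouring genes SFP1 and SFP2, annotated as major facilitator superfamily proteins and named as sugar porters. Both were raised, SFP1 by 2.49 and SFP2 by 1.21 on the log2 scale. Study-paired HA6 and HA9, proton pumps of the plasma membrane, had log2 changes of -1.19 and -1.26, and study-paired IRT1, the iron uptake transporter of roots, one of -1.69.

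Of 42 platform-named members of 4 stress lists, 4 were lowered and 0 raised, against 1.07% lowered over all platform-named probe sets. In the cold and drought list 8 of 13 platform-named members passed the adjusted p alone, all as lower. Dehydrins, which protect cells during drought and cold, were lowered: LEA was at 7.25 and 7.67 in 35S::TCP1 against 9.40 and 9.47 in control, LTI30 at 4.43 and 4.52 against 5.98 and 6.10, and COR47 at 9.27 and 9.45 against 10.39 and 10.41. They were the 3 of 13 platform-named members of the cold and drought list to change (median -0.41), and study-paired GolS1, which starts raffinose synthesis, joined them with 7.12 and 6.98 in 35S::TCP1 against 8.52 and 8.57 in control. The study's lists of changed probe sets hold 5 of the 13, with all 3 falls, and the others had a median of -0.08. COR47 fell short of the fold minimum without 35S::TCP1 replicate 1 (-0.95). PR5, a defence protein induced by salicylic acid, is study-paired and had a log2 change of -1.83, while 0 of 12 platform-named genes of salicylic acid and defence changed (median 0.17, with 9 of the 12 under a mean log2 intensity of 5). The adjacent chitinase genes AT2G43610 and AT2G43620, of a family that degrades fungal walls, were raised together, by 1.86 and 2.81, and AT2G43620 was at 7.79 and 7.91 in 35S::TCP1 against 5.02 and 5.07 in control. Heat shock proteins (4), touch and calcium genes (17) and glutathione transferases (14) had no platform-named member called.

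None of 89 platform-named transcription factors in 9 family lists was raised or lowered. Over all platform-named probe sets only 0.57% were raised and 1.07% lowered, so few calls would be seen among 89 in any case. Of the changed probe sets that the study placed in its RNA class, mainly transcription, 14 were raised and 7 lowered, but that class was drawn from lists chosen on these arrays, and in the Iberis petal classes 1 of 51 RNA probe sets was raised and 0 lowered. The factors named next are all study-paired. TCP9, a class I TCP gene, was at 7.70 and 7.81 in 35S::TCP1 and 6.62 and 6.33 in control (log2 change 1.28, standard error 0.11), while TCP4, of the clade that limits petal growth, had a log2 change of -0.96 and missed the fold minimum. KNAT1, a homeobox gene that shapes the inflorescence stem and pedicels, had 9.29 and 9.23 in 35S::TCP1 against 8.19 and 8.07 in control, and KNAT7, a homeobox gene of secondary walls, had a log2 change of -1.31. SVP, a MADS-box gene that represses flowering and acts in young floral meristems, averaged 7.10 ± 0.19 in 35S::TCP1 and 6.10 ± 0.13 in control (SD, n = 2 arrays each). Its log2 change of 1.01 lay at the fold minimum and fell to 0.87 without 35S::TCP1 replicate 2 and 0.91 without control replicate 1.

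In the MADS-box, bHLH and floral identity lists, study-paired SVP was the only gene called. None of 44 platform-named MADS-box genes (median 0.07, or -0.01 after cyclic loess), 15 bHLH genes (median -0.01) or 10 genes of floral organ identity and the meristem (median 0.06, changes from -0.59 to 0.59) was raised or lowered. By the adjusted p alone, 9 of the 44 MADS-box genes (7 higher, 2 lower), 5 of the 15 bHLH genes (1 higher, 4 lower) and 4 of the 10 floral genes (1 higher, 3 lower) passed. Since 0.57% of all platform-named probe sets were raised and 1.07% lowered, few or no calls would be seen in lists of this size. Of the 44 MADS-box probe sets, 34 had a mean log2 intensity under 5. PTL, a boundary gene that controls sepal and petal number, was the highest of the floral list, with 5.87 and 6.24 in 35S::TCP1 against 5.53 and 5.40 in control. The study-paired identity gene AP1, which marks young flowers and sepals and petals, was at 10.75 and 10.65 in 35S::TCP1 and 11.12 and 11.16 in control, a log2 change of -0.44 below the fold minimum, and it was high in both groups, as the label of floral tissue requires. Of 10 platform-named cell cycle genes and 9 histone genes, none was called, with medians of 0.08 and 0.19. The cell cycle median was -0.024 without 35S::TCP1 replicate 2.

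Genes encoded in the plastid were the list most often raised. Of 69 platform-named members 26 were raised and 0 lowered, with a median of 0.74, against 0.57% raised over all platform-named probe sets. The list was also higher than control in the other transgenes, with medians of 0.45 in 35S::IaTCP1 and 0.43 in 35S::CYC. Of the 69 members, 2 differed between 35S::TCP1 and 35S::IaTCP1 and 1 between 35S::TCP1 and 35S::CYC. psaC, an iron-sulfur subunit of photosystem I, had levels of 6.96 and 7.69 in 35S::TCP1 and 4.29 and 4.60 in control (log2 change 2.88, standard error 0.21, adjusted p = 2.24e-06). ndhG, of the NADH dehydrogenase-like complex, had 7.85 and 8.24 in 35S::TCP1 against 4.97 and 5.41 in control, and petN, of the cytochrome b6f complex, had 7.43 and 7.89 against 5.11 and 5.17. The groups were apart for these genes, but replicate 2 was the higher array of each in both groups. The study's lists of changed probe sets hold 12 of the 69 genes, all 12 raised, and the other 57 had 14 raised members and a median of 0.39. By complex, 5 of 6 cytochrome b6f genes (median 1.43), 5 of 10 genes of the NADH dehydrogenase-like complex (0.72), 5 of 15 genes of photosystem II (0.08), 1 of 5 of photosystem I (0.59), 2 of 6 of ATP synthase (0.61), 2 of 15 for ribosomal proteins (0.20) and 2 of 4 for RNA polymerase (1.05) were raised. Many plastid genes are transcribed together, so members of an operon are not separate observations.

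**Figure D4:**
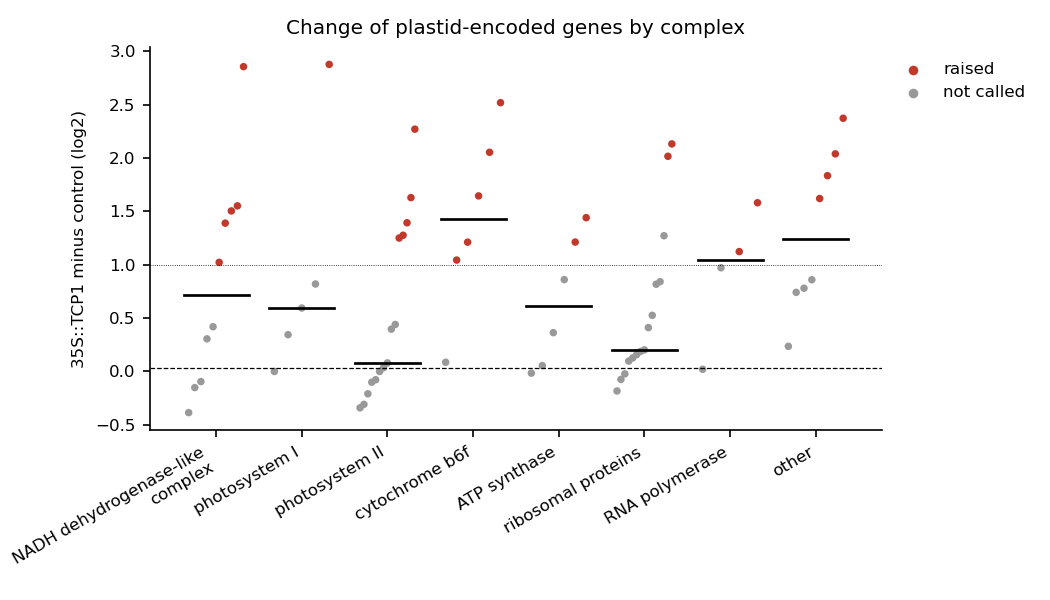
Log2 change (35S::TCP1 minus control, y axis) of the 69 platform-named plastid-encoded genes by the complex their product belongs to (x axis), with red for raised and grey for not called. Black bars are medians, the dashed line is the median of all probe sets and the dotted line the 2-fold minimum; cytochrome b6f (1.43) and the 8 other genes (1.24) have the highest medians and photosystem II (0.08) the lowest.

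The plastid genes varied more between replicates than other transcripts. Their median level was 9.38 and 9.74 in 35S::TCP1 and 8.65 and 9.14 in control, and the median difference between the 2 replicates was 0.43 in 35S::TCP1 and 0.42 in control, against 0.11 and 0.10 over all probe sets. Summed over the 69 genes, the log2 level was 16.84 and 17.09 in 35S::TCP1 and 16.69 and 17.01 in control, so that the sums of the groups overlapped. The median change was 0.47 without 35S::TCP1 replicate 2, 0.36 without control replicate 1, 0.95 without 35S::TCP1 replicate 1 and 1.03 without control replicate 2. Of the 26 raised genes 16 also passed a test against a 1.5-fold change. The part of the replicate difference in this result was not tested. Nuclear genes of photosynthesis did not rise with them, since none of 13 platform-named members changed (median -0.11). Study-paired PORA, an enzyme of chlorophyll synthesis, was raised, with 5.81 and 5.83 in 35S::TCP1 against 4.48 and 4.76 in control, and study-paired ELIP2, a light-induced protein that binds chlorophyll, was lowered, with 9.92 and 10.11 against 11.12 and 11.16.

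Markers of other tissues were checked for the purity of the sample. The leaf marker RCA, the activase of Rubisco, was at 13.07 and 12.97 in 35S::TCP1 and 13.23 and 13.10 in control, high in both groups. The seed marker OLEO3 was at 6.54 and 6.36 in 35S::TCP1 and 5.85 and 6.09 in control. It was not called but passed the adjusted p alone as higher, with a log2 change of 0.48. Of 6 root marker genes 5 had a mean log2 intensity under 5, and 1 was lowered, the peroxidase AT4G11290. The summed log2 level of the list was 7.55 and 7.55 in 35S::TCP1 and 9.02 and 9.10 in control. That fall rested on AT4G11290 alone, since the other 5 were slightly higher in 35S::TCP1 (log2 changes up to 0.25, median of the 6 0.13). Of 3 nectary markers 1 was lowered, ATGA2OX1, with summed log2 levels of 8.93 and 8.96 in 35S::TCP1 and 9.70 and 9.69 in control. The part of these tissues in the changes was not tested.

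Most gene lists held few or no changed genes. Of the 28 lists with at least 10 platform-named members, 16 had none raised or lowered and 8 had members that were only lowered. With 0.57% of all platform-named probe sets raised and 1.07% lowered, many lists of this size would hold no call in any case. UDP-glycosyltransferases were the largest list of nuclear genes with no platform-named member called (53 members, median -0.02). By the adjusted p alone 13 of the 53 passed, 3 higher and 10 lower, and study-paired UGT74E2 was raised by 2.78. The list was drawn by gene symbol and so does not hold AT5G05890. Of 25 cytochrome P450 genes named by the platform's table, AT3G44970 and CYP71B22 were raised and none was lowered (median 0.14), while 5 of 20 study-paired ones were raised and 2 lowered. RALF and other signalling peptides (31 members, median 0.07) had RALFL32 raised, with 9.70 and 9.75 in 35S::TCP1 against 8.46 and 8.66 in control, and RALFL25 and the cysteine-rich peptide LCR72 lowered by 1.45 and 1.37 on the log2 scale. Of 6105 pairs of adjacent genes that were both tested, 3 pairs were both raised, 3 were both lowered and 1 moved apart, AT5G64780 raised and AT5G64790 lowered.

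The changes in 35S::TCP1 were next compared directly with the other transgenes, in the same fit and at the same thresholds. The 435 probe sets were chosen on the 35S::TCP1 and control arrays, and the 35S::TCP1 arrays also enter each difference, so that the shares and directions among the 435 are in part fixed by that choice and are given as a description. Against 35S::IaTCP1, the transgene from the other crucifer, 52 of the 435 (12%) differed, and against 35S::CYC 114 (26.2%) did. Over all probe sets these shares were 0.642% and 1.99%. Of the 37 lowered transcripts that differed from 35S::IaTCP1, 35 were higher in 35S::TCP1. Of the 78 that differed from 35S::CYC, 68 were lower in 35S::TCP1 and 10 were higher. Of the raised transcripts that differed, 12 of 15 were higher in 35S::TCP1 than in 35S::IaTCP1 and 33 of 36 were higher than in 35S::CYC.

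The pollen list was compared in the same way. Of its 26 platform-named members 9 differed between 35S::TCP1 and 35S::IaTCP1 and 8 between 35S::TCP1 and 35S::CYC. AT3G07820 had a mean level of 9.01 in 35S::TCP1, 7.79 in 35S::IaTCP1, 10.15 in 35S::CYC and 10.30 in control (differences of 1.23 and -1.14 log2 units from 35S::IaTCP1 and 35S::CYC). Study-paired KCS17, an enzyme of fatty acid elongation, lay between the others in the same way, at 6.26 in 35S::TCP1, 5.10 in 35S::IaTCP1, 7.34 in 35S::CYC and 7.88 in control. MYB24 differed only from 35S::IaTCP1 at these thresholds, with means of 7.33 in 35S::TCP1, 5.64 in 35S::IaTCP1, 7.87 in 35S::CYC and 8.62 in control.

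In all, 21 of the 435 probe sets differed from both other transgenes, 16 of them paired with 1 gene. Of these 16, 12 were lowered. They were higher in 35S::TCP1 than in 35S::IaTCP1 and lower than in 35S::CYC, except for the study-paired PCC1, a gene controlled by pathogens and the circadian clock, and ATGA2OX1. PCC1 was at 7.58 in 35S::TCP1, 9.18 in 35S::IaTCP1, 6.57 in 35S::CYC and 8.91 in control. ATGA2OX1 was lowered least in 35S::TCP1, with 7.47, against 6.29 in 35S::IaTCP1, 5.81 in 35S::CYC and 8.53 in control. SVP and AT1G74010 were higher in 35S::TCP1 than in any other group: SVP averaged 7.10 in 35S::TCP1, 5.94 in 35S::IaTCP1, 6.07 in 35S::CYC and 6.10 in control. AT3G44970 was highest in 35S::TCP1, with 8.78, next in 35S::IaTCP1, with 7.71, and equal within its spread in 35S::CYC, with 4.28, and control, with 4.25. AT3G04210, annotated as a disease resistance protein, was raised less in 35S::TCP1 (6.15) than in 35S::IaTCP1 (7.66) and 35S::CYC (7.92), with 4.82 in control. With technical replicates of 1 line per transgene, a difference between transgenes and one between lines cannot be told apart.

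**Figure D5:**
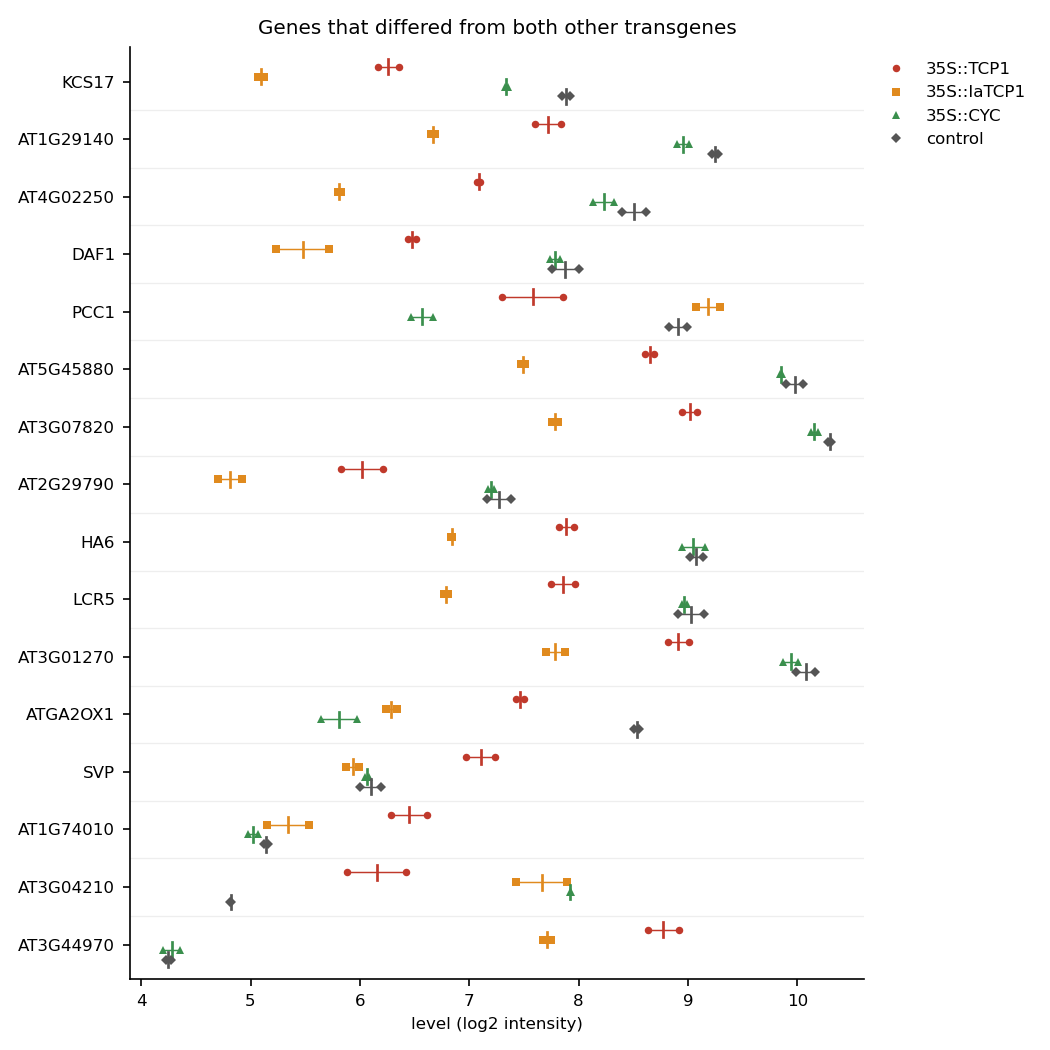
Log2 intensities (x axis) of the 16 named genes whose change in 35S::TCP1 differed from both other transgenes; in each row the groups run from top to bottom as 35S::TCP1, 35S::IaTCP1, 35S::CYC and control, each point is 1 array, a line joins the 2 arrays and a bar marks their mean. Most lowered genes lie between 35S::IaTCP1 on the left and 35S::CYC and control on the right, and AT3G44970 is at 8.78 in 35S::TCP1 but at 4.28 in 35S::CYC and 4.25 in control.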

How the data were processed

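RNA of 35S::TCP1, 35S::IaTCP1, 35S::CYC and control inflorescences was hybridized to Affymetrix ATH1 arrays, 2 per group (8 arrays). The deposited values are log2 intensities of 22810 probe sets. The submitters' processing notes name RMA, which corrects background, normalizes quantiles and summarizes probes, and Partek, with versions not given in the sources used here. Because quantile normalization forces 1 distribution on all arrays, a shift common to all transcripts would not be seen. The low end of the scale compresses changes of dim transcripts.

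After 64 AFFX control probe sets had been left out, 22746 were fitted with limma 3.58.1 (R 4.3.3), with 1 mean per group over all 8 arrays and moderated variances (4 residual and 7.9 prior degrees of freedom). The adjusted p is that of Benjamini and Hochberg over all probe sets. The fit was checked on simulated data with known changes. Tables and plots were made with Python 3.11.15, numpy 2.4.6, pandas 2.3.3 and matplotlib 3.10.9. Replicates correlated at 0.997 in 35S::TCP1 and 0.997 in control, and the median SD between replicates was 0.0762 log2 units. Same-numbered arrays deviated together in all 6 pairs of groups (correlations of 0.164 to 0.516), so the numbers were taken to pair the arrays, and adding that number to the model as a block was 1 alternative. Others were the 4 arrays alone, cyclic loess, quantile normalization, a variance trend, a filter on dim probe sets, other thresholds (the methods' unadjusted p included) and leaving out each 35S::TCP1 and control array.

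Gene names came from the platform's table, with symbols updated through RefSeq locus tags. A probe set paired with several genes was not named (503), and 8302 had no gene in the tables used. The named genes were the 20 highest and 20 lowest changes, up to 4 changed members of each of 62 gene lists and genes the study names for TCP1, 146 probe sets in all, 77 of them study-paired. All were taken from called probe sets that are paired with 1 gene and whose groups of arrays did not overlap. The values of 1 of them are not reported here. Of the 146, 38 were named by the study itself, and all 146 were called because only called probe sets were taken. Further members and unchanged genes were named to describe their lists, after their values were seen. Members and lists were chosen with earlier results of these data known. A summed level is the log2 of the summed linear intensities of a list.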

Additional observations from a re-analysis of the deposited data

Results flagged for a closer look

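For 54 named transcripts the level in 35S::TCP1 differed from that in another transgene by a test of the difference itself (limma, at least 2-fold and an adjusted p of 0.05 or less). There were 64 such differences, 24 against 35S::IaTCP1 and 40 against 35S::CYC, and 10 transcripts had both. The named transcripts were chosen for their change in 35S::TCP1, and the same arrays enter these differences. All values are log2 differences, 35S::TCP1 minus the other transgene. The transgenes were compared through 1 line each, so that transgene and line cannot be told apart.

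Higher in 35S::TCP1 than in 35S::IaTCP1 were 22 transcripts. The subtilase SBT4.13 (2.12) and the stamen factor MYB24 (1.69) differed most. Members of the pollen list were AT4G02250 (1.28), AT3G07820 (1.23), AT1G10770 (1.19), AT5G45880 (1.16), AT1G29140 (1.05) and AT5G48140 (1.03). The others were psaC (1.34), EXPA11 (1.27), PORA (1.19), ATGA2OX1 (1.18), SVP (1.17), KCS17 (1.16), AT5G39880 (1.10), HVA22J (1.09), LCR5 (1.07), AT3G44970 (1.07), NRT1.5 (1.06), NAC019 (1.01), AT1G70720 (1.10) and DAF1 (1.00). Lower in 35S::TCP1 than in 35S::IaTCP1 were AIR3 (-1.89) and AT2G05540 (-1.01).

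Higher in 35S::TCP1 than in 35S::CYC were 14 transcripts, led by AT3G44970 (4.50), AT1G12010 (3.21), the low-sulfur gene LSU1 (2.33) and the transporter gene SFP1 (2.16). They went on with GolS1 (1.84), ARR9 (1.71), AT2G43620 (1.67), ATGA2OX1 (1.66), SWEET12 (1.62), CYP78A7 (1.60), AT5G44580 (1.11), ATMG01290 (1.04), SVP (1.04) and ndhG (1.03). Lower in 35S::TCP1 than in 35S::CYC were 26 transcripts. The sugar transporter gene AtVEX1 (-1.53), AT1G35490 (-1.33), DAF1 (-1.31), ARL (-1.30), AT3G62180 (-1.28) and AT2G03740 (-1.26) differed most. They were followed by AT3G28750 (-1.24), AT1G29140 (-1.24), AT5G45880 (-1.20), TPS03 (-1.20), AT5G19580 (-1.18), AT4G02250 (-1.14), AT3G07820 (-1.14), RALFL25 (-1.12) and LCR5 (-1.11). The smallest were those of AGP6 (-1.09), SWEET14 (-1.09), KCS17 (-1.08), AT5G50830 (-1.08), AT1G30350 (-1.07), AT3G43120 (-1.06), AT3G61160 (-1.05), Iqd4 (-1.05), LCR72 (-1.04), ACA3 (-1.02) and ESM1 (-1.001).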

How the results depend on the processing

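The counts moved with the fold minimum. At a 1.5-fold minimum 395 probe sets were raised and 960 lowered, of which 293 differed from 35S::IaTCP1 and 541 from 35S::CYC, and with no fold minimum the counts were 1421, 2158, 799 and 1696. Leaving out 1 array of 35S::TCP1 or control gave 138 to 164 raised, 271 to 315 lowered, 39 to 56 different from 35S::IaTCP1 and 106 to 132 different from 35S::CYC. With the replicate block 151 were raised and 286 lowered, all 435 calls among them, and it changed no call of a named gene and no list count. Under quantile normalization 156 were raised and 254 lowered, and 403 of the 435 calls were shared. Tested against a 1.5-fold change, 36 differed from 35S::IaTCP1, against 52 by the main thresholds.

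No named probe set changed direction under any alternative. Calls were lost for 10 of 146 under quantile normalization, for 2 under cyclic loess, for 7 in the test against a 1.5-fold change (among them SVP, AGP4 and GID1B) and for 12, 5, 6 and 8 without 35S::TCP1 replicate 1, 35S::TCP1 replicate 2, control replicate 1 and control replicate 2. These were mostly genes close to the fold minimum, such as KCS15 and GRP18, and the cause was not tested. One list median turned sign among those recomputed, that of the cell cycle genes (-0.024 without 35S::TCP1 replicate 2, and up to 0.15 when another array was left out). The MADS-box median did so too under cyclic loess, by less than the spread between replicates. With 2 RNA samples per group and 32.4% of probe sets under a mean log2 intensity of 5, the detection of small changes in dim transcripts was limited, and the spread between independent lines was not measured.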
